A study of Mus musculus with 6 samples.

Results

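The matrix metalloproteinases (Mmp genes), the ADAMTS proteases (Adamts genes) and their tissue inhibitors (Timp genes) were followed in mouse distal colon, as the rows of the expression table whose symbol begins with one of these names and a number. There were 43 such genes among 19844: 20 Mmp genes, 19 Adamts genes and 4 Timp genes. The colon came from 3 ChREBP knockout and 3 wild-type C57BL6 mice, and all of them had been given azoxymethane, a carcinogen, and dextran sulfate sodium, which injures the colon lining, and were sampled on day 17. ChREBP, encoded by Mlxipl, is a transcription factor that responds to glucose. The labels do not say which part of Mlxipl was deleted or in which cells, and give no age for the mice. Values are FPKM, fragments scaled to transcript length and library size, from poly-A RNA sequencing.

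Matrix metalloproteinases are zinc-dependent proteases that are made as inactive precursors and cut collagens, gelatin, proteoglycans, growth factor precursors and one another's precursors. ADAMTS proteases are secreted relatives with thrombospondin repeats, and their substrates include the proteoglycans versican and aggrecan, procollagens and von Willebrand factor. TIMPs bind the active site of these proteases, and Timp3 is the member known for inhibiting ADAMTS proteases too. In colitis and in colon tumours several of these proteases are known to be made by stromal cells, neutrophils, macrophages and wound-edge epithelium.

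Between 13079 and 13253 genes per library reached 1 FPKM, and the depth estimated from short genes was between 17700000 and 18425000 reads per library. Mlxipl, the targeted gene, read 3.40, 5.66 and 5.04 FPKM in knockout replicates 1 to 3, against 5.84, 7.49 and 7.27 FPKM in wild-type replicates 1 to 3. Each knockout value lay below each wild-type value, but the transcript was present, and the log2 fold change of -0.48 was not called (limma adjusted p = 0.9995). It was -0.30 without knockout replicate 1 and -0.60 without knockout replicate 2. The labels give all 6 mice as female, whereas the Y-linked gene Ddx3y read between 9.51 and 12.11 FPKM and Xist between 0.02 and 0.04 FPKM in all 6 libraries. Knockout replicate 1 stood apart from the other 5 libraries in several of the genes described here, and it was the library with the lowest Mlxipl. For Mmp3, Mmp10, Mmp14, Timp1, Timp3, Mlxipl and Plat the log2 fold change is given with and without it.

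The family was expressed at very unequal levels, and 27 of its 43 genes reached 1 FPKM in at least 1 library. The test below was run on the 23 members (11 Mmp, 8 Adamts and 4 Timp genes) with at least 1 FPKM in 3 or more libraries. Timp2, Mmp15, Timp3, Mmp2 and Mmp14 were the 5 members averaging at least 30 FPKM. Mmp15, Mmp2 and Mmp14 together made up between 77.9% and 84.1% of the summed FPKM of the 20 Mmp genes, and Timp2 and Timp3 between 90.5% and 96.0% of that of the 4 Timp genes. Among the Adamts genes Adamts15 led, with between 28.6% and 41.0% of their sum. In bulk tissue such as this, fewer cells of a type and less RNA per cell cannot be told apart.

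**Figure D1:**
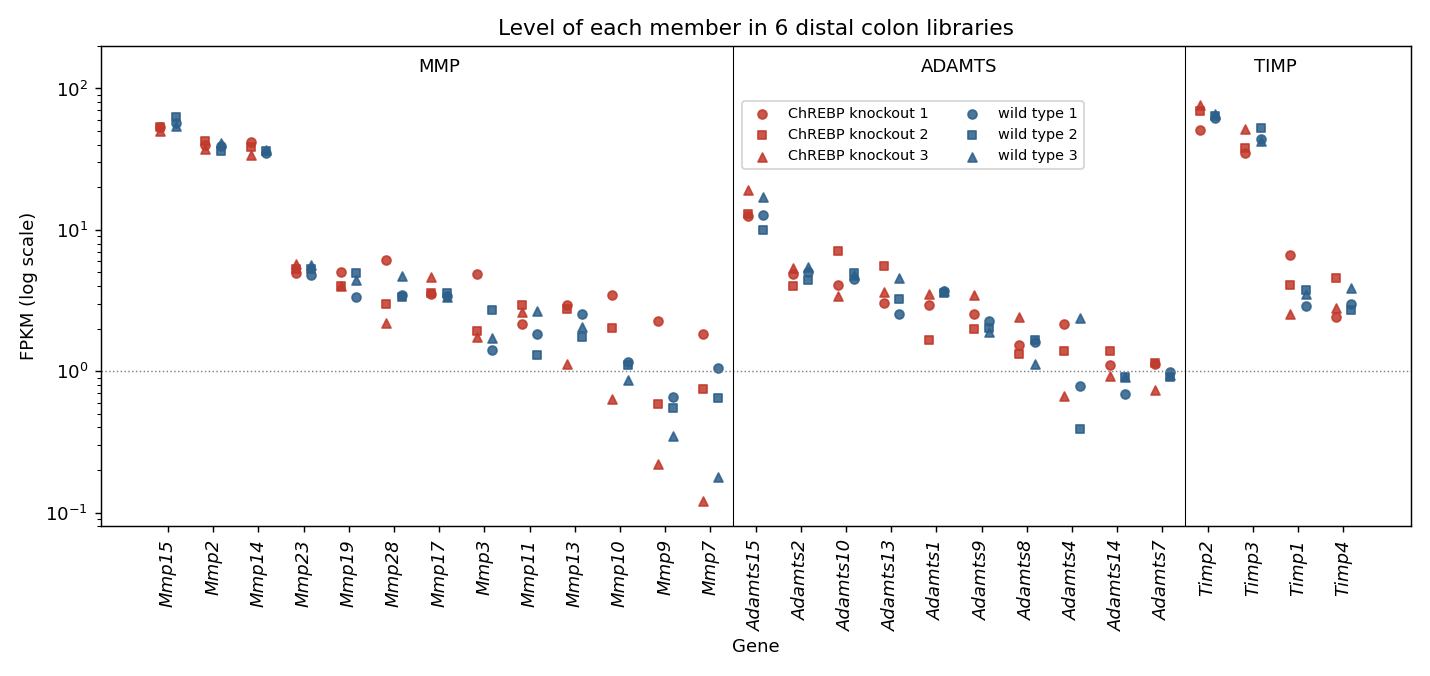
FPKM (log axis) of the 27 members that reached 1 FPKM in at least 1 library, with 1 point per library, ChREBP knockout in red to the left of wild type in blue and the replicate number given by the symbol. The dotted line marks 1 FPKM. The 5 most abundant members lie between 33.61 and 76.93 FPKM with groups close together, whereas knockout replicate 1 lies above the other libraries for Mmp3, Mmp10, Mmp9, Mmp7 and Timp1.

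On chromosome 9, 8 Mmp genes of the table lie near each other in the order Mmp13, Mmp12, Mmp3, Mmp10, Mmp8, Mmp27, Mmp20, Mmp7 in the RefSeq annotation of GRCm38.p6, with at most 1 coding gene between neighbours. They include the collagenase gene Mmp13, the stromelysin genes Mmp3 and Mmp10 and the matrilysin gene Mmp7. The 250 bases that end just before the annotated start of these 4 genes are shown, chosen after their values and matches were seen. Each of the 4 windows holds a match to TGANTCA, the letters bound by the AP-1 factors, in capitals. The sequences are from RefSeq, build GRCm38.p6, and all lie on the plus strand: Mmp3 at chr9:7445572-7445821, Mmp10 at chr9:7502092-7502341, Mmp7 (the more upstream of its listed starts) at chr9:7691840-7692089 and Mmp13 at chr9:7272264-7272513.
Mmp3: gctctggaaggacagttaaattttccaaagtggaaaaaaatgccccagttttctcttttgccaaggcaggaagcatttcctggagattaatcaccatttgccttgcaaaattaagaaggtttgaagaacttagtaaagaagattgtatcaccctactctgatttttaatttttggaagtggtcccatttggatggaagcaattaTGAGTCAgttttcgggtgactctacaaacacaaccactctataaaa
Mmp10: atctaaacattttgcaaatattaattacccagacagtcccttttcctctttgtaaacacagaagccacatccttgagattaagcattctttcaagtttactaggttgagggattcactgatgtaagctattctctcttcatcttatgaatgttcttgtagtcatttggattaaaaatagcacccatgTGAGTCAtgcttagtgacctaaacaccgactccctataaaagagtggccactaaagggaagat
Mmp7: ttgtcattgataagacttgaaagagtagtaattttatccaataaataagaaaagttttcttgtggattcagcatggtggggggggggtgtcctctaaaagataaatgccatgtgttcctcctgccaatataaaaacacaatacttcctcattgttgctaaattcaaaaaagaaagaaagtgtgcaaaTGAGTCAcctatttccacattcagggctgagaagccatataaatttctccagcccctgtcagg
Mmp13: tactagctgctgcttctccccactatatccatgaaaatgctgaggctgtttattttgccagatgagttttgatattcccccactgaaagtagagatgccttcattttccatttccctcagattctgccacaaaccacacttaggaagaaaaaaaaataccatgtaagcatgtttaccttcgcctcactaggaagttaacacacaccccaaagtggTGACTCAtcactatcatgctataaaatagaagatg
Counted back from -1 at the last base shown, the match began at -46 in Mmp3, -63 in Mmp10, -63 in Mmp7 and -35 in Mmp13. The expression table is on mm39, so these coordinates belong to the sequences alone.

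Promoter windows were listed for 29 of the 43 members, 32 windows in all. TGANTCA, which reads the same on both strands, was in 6 of the 32 windows and in 6.75% of the 32851 windows of all genes. The 6 windows belonged to Mmp3, Mmp7, Mmp10, Mmp12, Mmp13 and Mmp20, all from the chromosome 9 group, and of these Mmp12 read at most 0.46 FPKM and Mmp20 at most 0.02 FPKM. Timp1, Mmp14 and Mmp28 were, like Mmp7, Mmp10 and Mmp13, highest in knockout replicate 1 and lowest in knockout replicate 3. Their windows held no match, and Mmp9 had no window listed. Whether AP-1 factors act on these genes was not tested. CACGTG, the letters of an E-box, also reads the same on both strands. It was in 2 of the 32 windows, those of Adamts17 and of the second Mmp7 start, and in 6.02% of all windows. The full element bound by ChREBP was not searched for. TATAAA, searched on both strands, was in 6 of the 32 windows and in 12.4% of all windows. A match is a run of letters and not a measured site.

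No member passed the test of genotype. Limma on log2(FPKM + 1), with Benjamini-Hochberg adjustment over 13247 genes, called 0 of the 23 tested members at an adjusted p under 0.05, where 0.0151% of all tested genes were called. The adjusted p was 0.9995 for each of the 23 members, and 0 of them had an unadjusted p under 0.05, against 3.4% of all genes. Without knockout replicate 3, 4 of the 23 did (Mmp10, Adamts1, Timp3 and Timp1), against 4.07% of all genes, and with any other library left out 0 or 1 did, with no member called in any of these fits. The log2 fold change, knockout minus wild type, was positive in 16 members (13 without knockout replicate 1) and negative in 7. Over all genes tested 52.7% were positive. The median was 0.05 for the members, beside 0.01 over all genes tested. Among the Mmp genes 9 of 11 were positive, among the Adamts genes 5 of 8 and among the Timp genes 2 of 4. Adding 1 to FPKM shrinks the fold change of low genes. On that scale the 95% interval lay within 2-fold in either direction for 20 of the 23, the exceptions being Mmp10, Mmp3 and Adamts4. The 3 knockout values lay wholly below the 3 wild-type values in 2 of the 23 tested members, Adamts1 and Mmp15, against 4.14% of all genes. They lay wholly above in 0 of the 23, against 4.53%. Members too low to be tested are not in these counts. In either direction that is 2 of 23, against 8.67% of all genes, a share near the background.

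**Figure D2:**
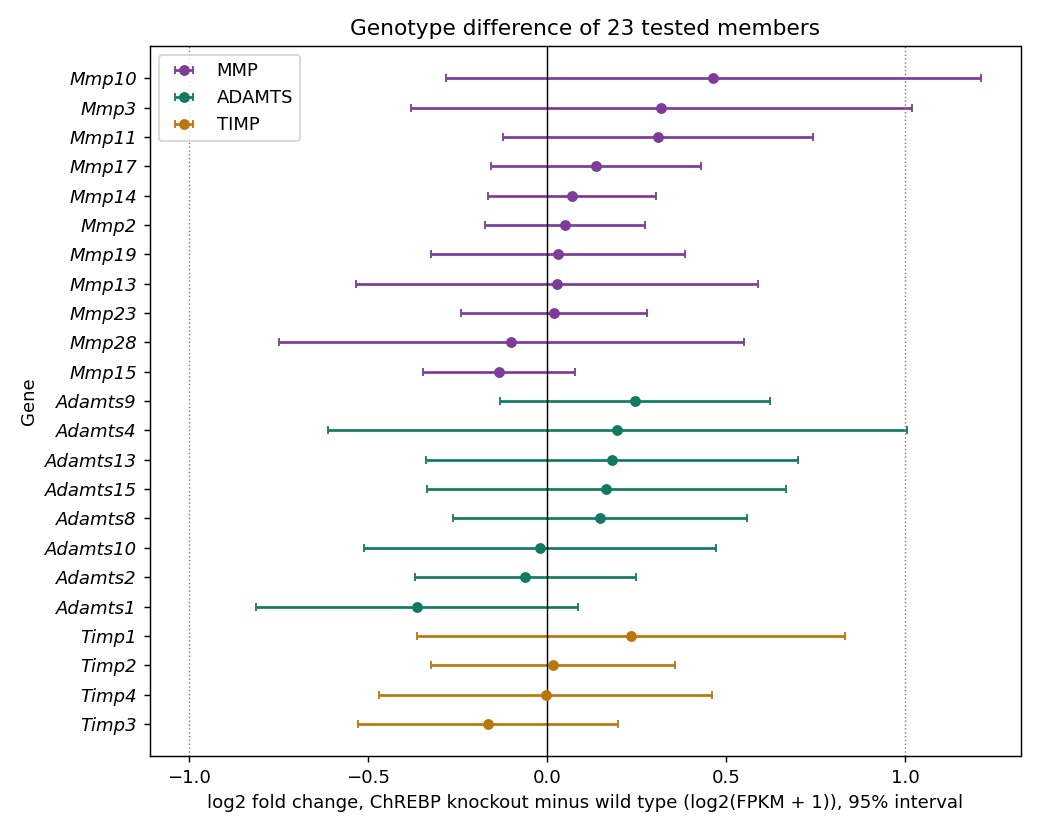
Log2 fold change (knockout minus wild type, log2(FPKM + 1)) of the 23 tested members with limma's 95% interval as bars, grouped by family and sorted within it. Every interval includes 0, and the dotted lines mark 2-fold; the intervals of Mmp10, Mmp3 and Adamts4 reach past them.

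The abundant membrane and gelatinase genes differed little. Mmp15, which encodes a membrane-type protease, read 53.80, 53.54 and 50.22 FPKM in knockout replicates 1 to 3, against 56.86, 62.40 and 54.29 FPKM in wild-type replicates 1 to 3. Each knockout value was below each wild-type value, but the nearest, 53.80 and 54.29 FPKM, were closer than the SD within either group (52.5 ± 1.996 FPKM in knockout and 57.9 ± 4.14 FPKM in wild type, n = 3 each). The log2 fold change was -0.14 (SE 0.09, 95% interval -0.35 to 0.08). Mmp14, the membrane-type protease that activates the Mmp2 precursor at the cell surface with Timp2 as adaptor, read 41.50, 38.38 and 33.61 FPKM in knockout colon and 34.92, 35.91 and 36.82 FPKM in wild type, groups that overlapped (log2 fold change 0.07, SE 0.10, and 0.0017 without knockout replicate 1). Mmp2, gelatinase A, read 40.13, 42.76 and 37.36 FPKM in knockout and 39.12, 35.92 and 41.07 FPKM in wild type, also overlapping (log2 fold change 0.05, SE 0.10). Among lower membrane-bound members, Mmp17, which is held by a lipid anchor, was at 3.90 ± 0.627 FPKM in knockout and 3.44 ± 0.103 FPKM in wild type, with knockout replicate 3 highest at 4.62 FPKM (log2 fold change 0.14, SE 0.13, and 0.03 without that library). Mmp23 was at 5.35 ± 0.396 FPKM in knockout and 5.27 ± 0.426 FPKM in wild type (log2 fold change 0.02, SE 0.11), and had the narrowest range of the 6 libraries, along with Mmp2, at 1.19 times from lowest to highest among the 23 tested members.

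The secreted stromelysins and related proteases varied most among the tested Mmp genes, and much of this variation lay in single libraries. Mmp3, stromelysin-1, which also activates other Mmp precursors, read 4.88, 1.92 and 1.74 FPKM in knockout replicates 1 to 3, against 1.41, 2.69 and 1.73 FPKM in wild-type replicates 1 to 3. Knockout replicate 1 was 1.81 times the next library, and the other 2 knockouts lay inside the wild-type range. The log2 fold change was 0.32 (SE 0.30, 95% interval -0.38 to 1.02) and -0.03 without that library. Mmp10, stromelysin-2, a gene of migrating epithelium in wounds, read 3.47, 2.03 and 0.64 FPKM in knockout and 1.16, 1.11 and 0.86 FPKM in wild type, so that the knockout group held the 2 highest values and the lowest. Its log2 fold change of 0.46 (SE 0.32, 95% interval -0.28 to 1.21), the most positive of the 23, was 0.13 without knockout replicate 1 and 0.85 without knockout replicate 3. Mmp3 and Mmp10 are close paralogs: 140 stretches of 50 bases, 8.37% of those of the Mmp10 transcript, are also in Mmp3, the sole pair among 903 pairs of members to share any, so that some of their reads may have been split.

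Mmp11, stromelysin-3, a stromal protease activated by furin inside the cell, read 2.16, 2.96 and 2.62 FPKM in knockout and 1.82, 1.31 and 2.66 FPKM in wild type. The groups overlapped through wild-type replicate 3, with a log2 fold change of 0.31 (SE 0.19, 95% interval -0.12 to 0.74). It was 0.15 without wild-type replicate 2 and 0.48 without wild-type replicate 3. Its exons share 155 bases with Chchd10 on the opposite strand, a gene read at 115.80 to 145.52 FPKM, and no step of the protocol marks strand. Mmp13, collagenase-3, ranged from 1.12 to 2.93 FPKM in knockout and 1.74 to 2.52 FPKM in wild type, and Mmp28, an epithelial protease also called epilysin, from 2.18 to 6.09 FPKM in knockout and 3.35 to 4.75 FPKM in wild type. In both genes the knockout libraries spanned the wild-type range on either side, with replicate 1 highest and replicate 3 lowest. Mmp19 ranged from 3.98 to 5.06 FPKM in knockout and 3.37 to 4.99 FPKM in wild type. It shares 789 exonic bases with Tmem198b on the opposite strand, a gene read at 3.61 to 6.08 FPKM.

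Mmp9 and Mmp7 had too few libraries at 1 FPKM to be tested, but showed the widest spread between libraries among the 27 members that reached 1 FPKM. Mmp9, gelatinase B, which neutrophils store in granules, read 2.27, 0.59 and 0.22 FPKM in knockout and 0.66, 0.55 and 0.35 FPKM in wild type. Its level in knockout replicate 1 was 3.44 times that of the next library, about 133 estimated reads against 38. Mmp7, matrilysin, which cuts defensin precursors in mouse small intestine and is made by intestinal tumour cells, read 1.82, 0.75 and 0.12 FPKM in knockout and 1.06, 0.65 and 0.18 FPKM in wild type. From high to low the 6 libraries stood in the same order for Mmp9 and Mmp7, with knockout replicate 1 first and knockout replicate 3 last. About 2.3 reads stood behind the lowest Mmp7 value, so that its range of 15.2 times from lowest to highest is poorly fixed. The remaining 7 Mmp genes stayed under 1 FPKM in every library. Among them Mmp12, macrophage elastase, lay between 0.13 and 0.46 FPKM and Mmp8, the neutrophil collagenase, between 0.00 and 0.04 FPKM, at most about 1.8 reads. Mmp20, the enamel protease of teeth, was listed at 0 in all libraries but wild-type replicate 3, at 0.02 FPKM.

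**Figure D3:**
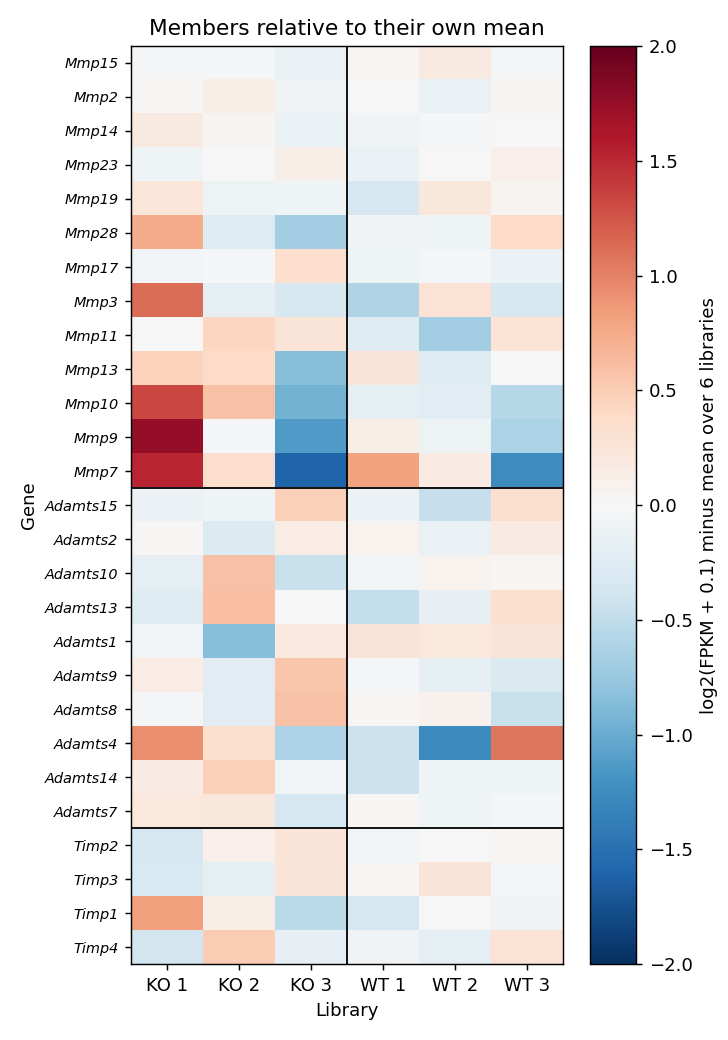
Level of the 27 members that reached 1 FPKM in at least 1 library, as log2(FPKM + 0.1) minus the gene's mean over the 6 libraries, with the 3 ChREBP knockout libraries left of the 3 wild-type libraries and lines between MMP, ADAMTS and TIMP genes. Mmp3, Mmp10, Mmp9, Mmp7 and Timp1 are high in knockout replicate 1, the last 4 of them are lowest in knockout replicate 3, and Timp2 and Timp3 are low in knockout replicate 1.

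The inhibitors did not move together. Timp1, the inhibitor known for induction in inflamed tissue, read 6.63, 4.07 and 2.52 FPKM in knockout replicates 1 to 3, against 2.90, 3.75 and 3.52 FPKM in wild-type replicates 1 to 3. Knockout replicate 1 was 1.63 times the next library and the knockout group also held the lowest value. The log2 fold change was 0.23 (SE 0.26, 95% interval -0.36 to 0.83) and -0.05 without knockout replicate 1. Timp2, the most abundant member, read 51.10, 69.02 and 76.93 FPKM in knockout and 61.99, 63.84 and 66.43 FPKM in wild type, so that the knockouts spanned the wild-type range on both sides (log2 fold change 0.02, SE 0.15). Timp3, which is held in the matrix, read 35.15, 37.93 and 52.06 FPKM in knockout and 44.19, 52.36 and 42.77 FPKM in wild type, overlapping groups with a log2 fold change of -0.17 (SE 0.16, 95% interval -0.53 to 0.20). It was -0.056 without knockout replicate 1 and -0.33 without knockout replicate 3. Timp4 ranged from 2.41 to 4.55 FPKM in knockout and 2.73 to 3.88 FPKM in wild type. Timp2, Timp3 and Timp4 were each lowest in knockout replicate 1, where Timp1 was highest. Timp3 shares 1733 exonic bases with Syn3 on the opposite strand, but Syn3 was at most 0.87 FPKM. Timp4 shares 90 exonic bases with Syn2 on the opposite strand, and Syn2 read 2.75 to 6.42 FPKM, above Timp4 in each library. Mmp28 shares 466 exonic bases with 1700020L24Rik, Mmp24 637 with BC029722 and Adamts7 122 with Tbc1d2b, also on the opposite strand. The levels of these last partners are not given here.

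The sum of the 4 Timp genes over that of the 20 Mmp genes spanned a wider range in knockout colon. It was 0.548, 0.711 and 0.925 in knockout replicates 1 to 3, against 0.720, 0.764 and 0.732 in wild-type replicates 1 to 3, with means of 0.728 ± 0.189 in knockout and 0.739 ± 0.0226 in wild type (SD, n = 3 each). The means are close, and the wild-type values lie inside the knockout range. The summed Mmp level was 161 ± 14.5 FPKM in knockout and 158 ± 2.57 FPKM in wild type, and the summed Timp level 115 ± 19.5 FPKM in knockout and 117.1 ± 5.32 FPKM in wild type. On the log2(FPKM + 1) scale the SD was larger in knockout than in wild type in 16 of the 23 tested members, against 60.6% of all genes, and the median SD of the members was 0.30 in knockout and 0.15 in wild type, against 0.16 in knockout and 0.13 in wild type over all genes. No test of this spread was made with 3 mice a group.

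Among the proteoglycan-cutting Adamts genes, Adamts1 had the smallest p of the 23 tested members. When all 43 genes were fitted without a filter, Mmp25 had the smallest. Mmp25 read 0.38, 0.27 and 0.35 FPKM in knockout and 0.25, 0.26 and 0.10 FPKM in wild type, and was not called. Adamts1, which cuts versican and aggrecan, read 2.94, 1.65 and 3.52 FPKM in knockout replicates 1 to 3, against 3.70, 3.56 and 3.69 FPKM in wild-type replicates 1 to 3. All 3 knockouts were lower, but the nearest values, 3.52 and 3.56 FPKM, almost met. The log2 fold change was -0.36 (SE 0.19, 95% interval -0.81 to 0.09), and -0.14 without knockout replicate 2. Adamts9, another versican-cutting protease, read 2.56, 1.99 and 3.44 FPKM in knockout and 2.25, 2.03 and 1.88 FPKM in wild type, overlapping groups with a log2 fold change of 0.25 (SE 0.16, 95% interval -0.13 to 0.62), and 0.10 without knockout replicate 3. Adamts15, which cuts the same proteoglycans and was the most abundant Adamts gene, read 12.63, 12.96 and 19.15 FPKM in knockout and 12.70, 9.93 and 17.17 FPKM in wild type. Replicate 3 was the highest library in both groups (log2 fold change 0.16, SE 0.22). Adamts8, its neighbour on chromosome 9, was at 1.76 ± 0.567 FPKM in knockout and 1.47 ± 0.294 FPKM in wild type, and was highest in knockout replicate 3 as well (log2 fold change 0.15, SE 0.18). Adamts4, an inducible aggrecanase, was uneven in both groups, at 2.16, 1.38 and 0.67 FPKM in knockout and 0.78, 0.39 and 2.38 FPKM in wild type. Adamts5 lay between 0.50 and 0.72 FPKM and Adamts20 between 0.06 and 0.28 FPKM.

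Of the procollagen-trimming proteases, Adamts2 was at 4.73 ± 0.689 FPKM in knockout and 4.97 ± 0.513 FPKM in wild type (log2 fold change -0.06, SE 0.13), Adamts14 ranged from 0.93 to 1.38 FPKM in knockout and 0.69 to 0.91 FPKM in wild type, and Adamts3 from 0.38 to 0.83 FPKM in knockout and 0.28 to 0.56 FPKM in wild type. Adamts14 was not among the tested genes, and its nearest values were 0.93 FPKM in knockout and 0.91 FPKM in wild type. Adamts13, the protease of von Willebrand factor, read 3.05, 5.56 and 3.62 FPKM in knockout and 2.56, 3.23 and 4.60 FPKM in wild type (log2 fold change 0.18, SE 0.23). The fibrillin-associated Adamts10 read 4.10, 7.09 and 3.42 FPKM in knockout and 4.51, 4.94 and 4.81 FPKM in wild type. Both were highest in knockout replicate 2, as were 25.8% of all tested genes, the largest share of any library. Adamts7 lay between 0.74 and 1.15 FPKM, and the 9 Adamts genes under 1 FPKM in all libraries were led by Adamts5 and Adamts6, while Adamts16 and Adamts18 stayed at or below 0.07 FPKM.

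Across the 23 tested members, knockout replicate 1 was the highest library for 7, against 17.3% of all tested genes, and knockout replicate 3 the lowest for 7, against 15.8%. Knockout replicate 3 was also the highest library for 6, against 15.9%, and knockout replicate 1 the lowest for 3, against 21.0%. Replicate 1 was highest and replicate 3 lowest in the same gene for 5 of the 23, namely Mmp14, Timp1, Mmp28, Mmp13 and Mmp10, against 3.62% of all tested genes. The reverse held for 1 of the 23, Timp2, against 4.10%. This pair of libraries was picked after the values of the members were seen, and no other pair was counted. The shares therefore do not show a trait of the family. Genes made by the same cells are not independent, and no test was made of these counts. Genes outside the family stood out in the same library and are given after their values were seen. S100a8 and S100a9, calprotectin subunits of neutrophils and inflamed epithelium, read 6.04 and 6.55 FPKM in knockout replicate 1, and between 0.77 and 1.10 and between 0.88 and 1.99 FPKM in the other 5 libraries. Fosl1, the AP-1 factor Fra-1, read 1.75 FPKM there and between 0.15 and 0.47 FPKM elsewhere. The other listed AP-1 genes, Fos, Fosb, Fosl2, Jun and Junb, were not highest in that library. The serine protease gene Plat, tissue plasminogen activator, read 13.08 FPKM there, against 4.67 and 5.49 FPKM in the other knockouts and 3.14 to 3.96 FPKM in wild type. Plaur, the urokinase receptor, read 9.49 FPKM there and between 4.41 and 5.47 FPKM elsewhere.

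**Figure D4:**
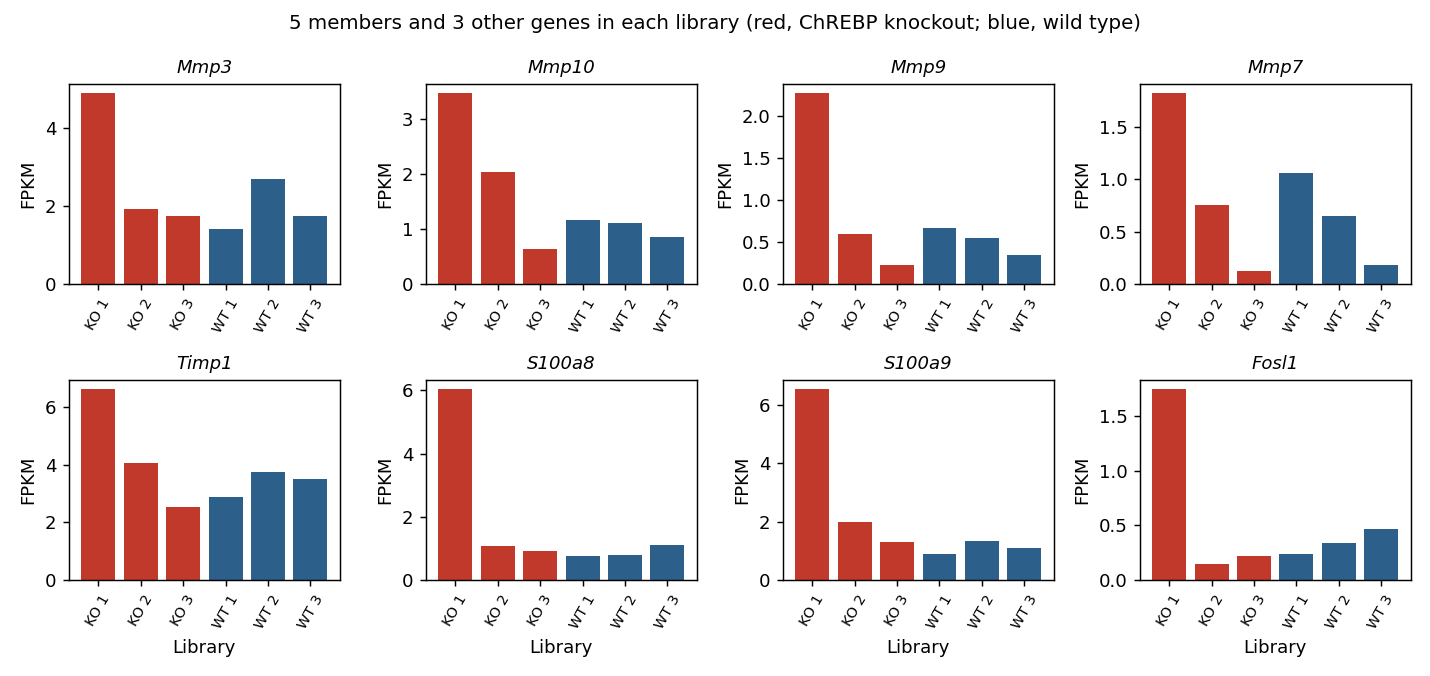
FPKM in each library (red, ChREBP knockout replicates 1 to 3; blue, wild-type replicates 1 to 3) of 5 members and of S100a8, S100a9 and Fosl1; each axis starts at 0 and has its own scale. The 8 genes were chosen after their values were seen, as genes highest in knockout replicate 1. Its bar is therefore the highest in all 8 panels, from 1.75 FPKM for Fosl1 to 6.63 FPKM for Timp1.

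The cell type marker lists did not all follow this library. Of 10 neutrophil markers 9 were in the table, with a summed level of 173 to 226 FPKM in knockout and 172 to 239 FPKM in wild type, most of it Ly6g. Without Ly6g, a choice made after the values were seen, the other 8 summed to 19.4 FPKM in knockout replicate 1, 9.03 and 6.77 FPKM in the other knockouts and 6.20 to 7.63 FPKM in wild type. Most of that excess was S100a8 and S100a9: the other 6 summed to 6.82 FPKM in knockout replicate 1, 5.96 and 4.54 FPKM in the other knockouts and 4.55 to 5.49 FPKM in wild type. Ly6g, Csf3r and Cxcr2 were not highest in knockout replicate 1. The neutrophil gene Retnlg was listed at 0 in 4 libraries and read 0.56 FPKM in knockout replicate 1, and the granule genes Camp, Ltf and Elane were at most 0.79 FPKM. Squamous epithelium markers (9 of 10 in the table) summed to 8.04 FPKM in knockout replicate 1, 3.86 FPKM in each other knockout and 2.22 to 4.46 FPKM in wild type. Most of the 8.04 FPKM was Krt14 and Krt13, at 3.49 and 2.92 FPKM. Krt5 and Krt6a were also highest there, at 0.25 and 0.13 FPKM. Krt10, Krt4, Krt1 and Lor were not, and Trp63 was at most 0.02 FPKM in any library. Macrophage markers (10 of 10) summed to 314, 537 and 329 FPKM in knockout and 354 to 497 FPKM in wild type, so they were lowest in knockout replicate 1. Fibroblast markers (10 of 10) summed to 731 to 777 FPKM in knockout and 653 to 833 FPKM in wild type, and smooth muscle markers (8 of 8) to 2883 to 4403 FPKM in knockout and 2691 to 3672 FPKM in wild type, highest in knockout replicate 3. Mast cell markers (8 of 8) summed to 39.9, 33.8 and 16.1 FPKM in knockout and 22.5 to 28.1 FPKM in wild type, highest in knockout replicate 1 and lowest in replicate 3. Most of this range was Mcpt1, at 17.12, 9.89 and 0.88 FPKM in knockout, and Mcpt2, at 7.24, 3.00 and 0.35 FPKM. Cpa3, Fcer1a and Mcpt4 were also highest in knockout replicate 1, at no more than 0.49 FPKM, whereas Kit, Cma1 and Tpsb2 were not. Endothelial markers (8 of 8) summed to 55.3 to 68.6 FPKM in knockout and 59.3 to 63.4 FPKM in wild type, markers of glia and neurons (7 of 7) to 19.3 to 25.9 FPKM in knockout and 19.3 to 22.5 FPKM in wild type, and colon epithelium markers (10 of 10) to 6623 to 7019 FPKM in knockout and 6226 to 7047 FPKM in wild type. None of the listed markers found in the table was at 0 in all 6 libraries. The part of these cells in the values of Mmp3, Mmp7, Mmp9, Mmp10 and Timp1 was not tested.

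For genes that act on or with the family, in 6 lists, limma called 0 of 72 genes tested, and 4 (5.56%) had an unadjusted p under 0.05, against 3.4% of all genes. The counts of positive and negative genes in each list stand beside 52.7% positive over all genes tested. Of the plasminogen system and serine protease inhibitors 10 of 14 genes were tested, 6 positive and 4 negative with a median log2 fold change of 0.15, beside 0.01 over all genes, and 1 had an unadjusted p under 0.05. That gene was Plat, higher in all 3 knockouts, at 7.75 ± 4.64 FPKM in knockout and 3.69 ± 0.473 FPKM in wild type (log2 fold change 0.78, SE 0.31, limma adjusted p = 0.9995), and its log2 fold change was 0.38 without knockout replicate 1. Serpinf1, a serpin family member also called PEDF, was at 7.82 ± 1.91 FPKM in knockout and 5.89 ± 0.958 FPKM in wild type (log2 fold change 0.34). Cell-surface and convertase regulators had 4 positive and 8 negative members of 12 (median -0.01). They include Bsg, an inducer of Mmp genes in neighbouring cells, at 495 ± 62.4 FPKM in knockout and 454 ± 11.4 FPKM in wild type (log2 fold change 0.12), the convertase gene Pcsk6 at 6.18 ± 0.647 FPKM in knockout and 7.03 ± 0.156 FPKM in wild type (log2 fold change -0.17), and the syndecan gene Sdc4 at 114 ± 20.5 FPKM in knockout and 98.7 ± 11.4 FPKM in wild type (log2 fold change 0.19).

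Among genes listed as ADAM sheddases, many but not all of them membrane relatives that release surface proteins, 4 of 9 were positive and 5 negative (median -0.01). Adam23, which lacks protease activity, was at 3.08 ± 0.120 FPKM in knockout and 4.06 ± 0.641 FPKM in wild type (log2 fold change -0.30, SE 0.13), Adamdec1 of gut stroma at 62.2 ± 7.58 FPKM in knockout and 72.9 ± 7.64 FPKM in wild type (log2 fold change -0.23), and Adam33 at 4.67 ± 1.66 FPKM in knockout and 3.17 ± 0.542 FPKM in wild type (log2 fold change 0.40). ADAMTS-like proteins, which lack the protease domain, had 3 positive and 1 negative members of 4 (median 0.05), with Thsd4 at 6.67 ± 0.186 FPKM in knockout and 5.69 ± 0.548 FPKM in wild type (log2 fold change 0.20), Adamtsl4 at 10.04 ± 1.73 FPKM in knockout and 9.66 ± 1.22 FPKM in wild type (log2 fold change 0.05) and Adamtsl1 at 1.40 ± 0.859 FPKM in knockout and 1.22 ± 0.230 FPKM in wild type (log2 fold change 0.06). The direction of Adamtsl4 and Adamtsl1 turned when some single libraries were left out. Matrix substrates had 15 positive and 4 negative members of 19 (median 0.07). Elastin, Eln, was at 63.2 ± 11.9 FPKM in knockout and 46.9 ± 13.3 FPKM in wild type (log2 fold change 0.45), Col1a1 at 107 ± 14.4 FPKM in knockout and 90.3 ± 5.38 FPKM in wild type (log2 fold change 0.23) and Col4a2 at 52.2 ± 9.52 FPKM in knockout and 44.8 ± 1.91 FPKM in wild type (log2 fold change 0.20).

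Inducers of Mmp genes, cytokines and transcription factors, had 12 positive and 6 negative members of 18 (median 0.07), of which 2 had an unadjusted p under 0.05. The cytokine gene Tnf read 4.19, 6.07 and 2.56 FPKM in knockout replicates 1 to 3, against 2.70, 1.87 and 1.92 FPKM in wild type, with a log2 fold change of 0.69 (SE 0.24, limma adjusted p = 0.9995). Jun, an AP-1 subunit, read 39.21, 44.99 and 34.63 FPKM in knockout and 29.41, 27.38 and 35.49 FPKM in wild type (log2 fold change 0.36, SE 0.13, limma adjusted p = 0.9995). Both genes were highest in knockout replicate 2 and not in replicate 1, and in both genes the groups overlapped. Knockout replicate 2 was the highest library for 25.8% of all tested genes, and its summed FPKM was the largest of the 6 libraries. Rela, a subunit of NF-kappaB, was at 30.8 ± 1.22 FPKM in knockout and 28.2 ± 1.71 FPKM in wild type (log2 fold change 0.12).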

How the data were processed

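Total RNA of distal colon from 3 ChREBP knockout and 3 wild-type mice was extracted with Trizol, selected for poly-A and sequenced, per the labels' protocols, which name no step that marks strand. The authors deposited 1 table of FPKM per gene and library with 2 decimals. HISAT2, RSEM and the build mm39 appear in the submitters' processing notes, without versions or filters. Groups came from the genotype label.

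The 13247 genes that reached 1 FPKM in 3 or more libraries were tested as log2(FPKM + 1) with limma 3.58.1 in R 4.3.3 (mean-variance trend, two-sided, genotype alone), with Benjamini-Hochberg adjustment, a threshold of 0.05 and moderated SE and 95% intervals. The pipeline was tested on simulated data. Group values are mean ± SD of FPKM. Nothing says more than that replicates are separate samples of mice, and p-values measure the spread between these samples. The depth estimate used 383 non-coding genes no longer than 150 bases, in which single reads make visible steps: 84.2% to 89.3% of their values came within 0.05 of a whole number. Reads per gene were estimated from it and the GENCODE M21 transcript length, which also gave shared and overlapping sequence, and were not recovered as counts. All 43 gene numbers matched RefSeq of GRCm38.p6. Fold changes are given for the 12 tested members of smallest unadjusted p and the 8 of highest mean level, and for up to 3 genes of each of 6 related lists. Values are given for the others, and genes named outside this rule are said to be so. Some genes that this rule names are not reported here. The members and lists were chosen with earlier results of these data known. The 14 alternatives are given in the closing section. Python 3.11.15, numpy 2.4.6, pandas 2.3.3 and matplotlib 3.10.9 were used.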

Additional observations from a re-analysis of the deposited data

How the results depend on the processing

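With 0 members and 0 list genes called by limma under all 14 alternatives (pseudocount 0.1, no filter, a mean of at least 5 FPKM, rescaling to the same total, median-of-ratios scaling, no mean-variance trend, a robust prior, the replicate block and leaving out each library), the absence of calls did not depend on these settings. The number of members with a positive difference was 28 of 43 with no filter and 5 of 7 with a mean of at least 5 FPKM, since other genes were tested. Over all genes the 2 calls became 3 with a pseudocount of 0.1, no filter, no trend or the robust prior, 0 with a mean of at least 5 FPKM (316 genes at an unadjusted p under 0.05), 0 with the replicate block (504) and 0 to 1 when a library was left out (323 to 807). The direction of 15 of the 23 tested members turned in some setting: 9 given a fold change here, and Adamts4, Adamts10, Mmp13, Mmp19, Mmp28 and Timp4. With libraries rescaled to the same total Mmp23 was at -0.0033 and Timp2 at -0.011. Leaving out a library gave log2 fold changes from -0.034 to 0.52 for Mmp3, -0.050 to 0.51 for Timp1, -0.020 to 0.36 for Adamts13, -0.017 to 0.36 for Adamts15, -0.013 to 0.26 for Adamts8, -0.14 to 0.037 for Adamts2, -0.11 to 0.18 for Timp2, -0.033 to 0.065 for Mmp23 and -0.0021 to 0.098 for Mmp2, and the median of the members from 0.013 to 0.097. The causes were not tested. Libraries sharing a replicate number correlated in their deviations at 0.27, -0.096 and 0.063, so the number was not taken as a pairing, and not every library correlated best with its own number. Depth limits members under 1 FPKM, several of which rest on a few reads.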
